A study of Xenopus laevis with 51 samples.

Results

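Keratins and desmosome genes were followed through hindbrain and eye of the frog *Xenopus laevis*. The members were chosen by gene symbol alone: every entry of the gene table whose symbol is KRT followed by a digit, and every entry with the symbol DSP, PKP1, PKP2, PKP3, JUP, DSG2 or DSC3. This gave 65 of 24381 entries, of which 54 are keratins under 16 symbols and 11 are desmosome genes. No entry carries the symbol DSC3. The symbols are those of human genes that the gene models assign, so that 7 entries are called KRT12, 6 KRT24, 5 each KRT5 and KRT17, and 4 each KRT8, KRT18, KRT19 and KRT75. The genome of *X. laevis* is an ancestral duplication with L and S copies (homeologs) of most genes, which the table lists as separate entries. Reads that fitted several places equally well were spread at random by the authors, so the split between closely similar keratin entries is uncertain.

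The study asked which genes respond to axon injury where axons regrow (tadpole hindbrain, frog eye) and where they do not (frog hindbrain). All animals were albino *X. laevis* from 1 supplier, and their sex was not determined. Tadpoles were at stage 53 and had the spinal cord transected at mid-thoracic level (SCI), with the hindbrain taken after 3 days, 7 days or 3 weeks beside unoperated tadpoles of the same age. Juvenile frogs, 1 to 3 months past metamorphosis, had the same SCI at the same times with 1 shared group of unoperated frogs, or a crush of the right optic nerve (ONC) with the whole eye taken after 3 days, 11 days or 3 weeks. The left eye of the ONC frogs (contralateral eye) and eyes of frogs never operated (naive eyes) were the eye controls. No group had sham surgery. Each of the 17 groups had 3 libraries, each from a pool of 5 hindbrains or 6 eyes, 51 libraries in all. Levels are given as FPKM, fragments per length of gene model, scaled for the size of the library, in the order of replicates 1, 2 and 3 where 3 values are listed.

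The value of 1 read in FPKM, a rough measure of depth that is higher in shallower libraries, varied from 0.732 to 1.778 times its middle level. It was 1.778, 0.914 and 1.516 in ONC eyes of 3 days and 0.829 to 0.966 in naive eyes. Frog controls had 1.385 to 1.464 and 3-week tadpole controls 0.953 to 1.141. Depth thus differed between some of the groups compared. In the library names, the letter R marks the 3 frog hindbrain controls and no other library, and the letter B marks 8 eye libraries, among them all 3 contralateral eyes of 11 days and no naive eye. The labels do not explain these letters, and whatever they stand for cannot be told apart from the group in the comparisons of frog SCI with frog control and of the 11-day contralateral with the naive eye. Hindbrain libraries carried RNA of lens genes at a sum of 30.6 to 757 FPKM over 60 entries, against at least 157604 FPKM in every eye library.

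Keratins are intermediate filament proteins that assemble from pairs of 1 type I and 1 type II chain and give epithelial cells their strength. KRT8 and KRT18, with KRT19, are the keratins of simple epithelia, KRT5 and KRT14 those of the basal layer of stratified epithelium, KRT10 that of differentiating layers and KRT12 that of the corneal epithelium in mammals. KRT6A and KRT17 are raised at skin wounds in mammals, and KRT75 is a hair follicle keratin there. Desmosomes are the junctions to which keratin filaments attach: desmogleins and desmocollins (DSG2, DSC3) span the membrane, plakoglobin (JUP) and the plakophilins (PKP1, PKP2, PKP3) bind their tails, and desmoplakin (DSP) ties the plaque to the filaments. In frogs the larval skin is replaced at metamorphosis by an adult epidermis with its own keratins. Skin itself was not sampled here. Neural tissue has few keratinised cells, and keratin RNA in a bulk library can come from any epithelium in it.

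The keratin entries lie in large clusters in the genome. Coordinates are those in the entry names, on numbered scaffolds of the gene models. On scaffold 13265, 14 type I or KRT222 entries and 1 JUP entry lie between 3538424 and 3953319, a span of 414.9 kb, and on scaffold 75417, 18 members of the same kind lie between 6478369 and 6970626, a span of 492.3 kb. Type II entries with a KRT18 entry beside them lie on scaffold 5732 (9 members, 8462892 to 8908183) and on scaffold 200825 (9 members, 6561447 to 7079161). Both type I clusters run from a KRT222 entry at one end to JUP at the other, and both type II clusters from the neighboring KRT8 and KRT18 entries to KRT80. Each cluster held far more RNA in the eye than in the hindbrain: the mean sum over libraries was 33.8 and 836 FPKM on scaffold 13265, 43.5 and 669 on 75417, 9.24 and 259 on 5732, and 19.9 and 304 on 200825.

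The whole eye was rich in keratin RNA and the hindbrain held little. In naive frog eyes the summed level of all keratin entries was 2417 ± 210 FPKM (SD, n = 3), and in unoperated frog hindbrain it was 95.8 ± 30.8. By mean over all libraries of a tissue, 58 of the 65 members reached 0.45 FPKM, the study's threshold of active expression, in eye, and 22 did in hindbrain. 36 reached it in eye alone and 7 in neither tissue. All 21 eye libraries stood above all 30 hindbrain libraries for 40 of the 65 members, against 14.4% of all entries in the table, and the reverse held for 1 member, against 11% of all entries. 11 members were at 0 in 25 or more of the 30 hindbrain libraries.

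The 2 tissues also differed in which keratins made up the sum. In eye, KRT12 entries gave 38.3% of keratin FPKM, KRT19 12.6%, KRT75 9.13% and KRT10 7.69%, while in hindbrain KRT12 gave 0.793% and the leading symbols were KRT19 with 24.7%, KRT8 with 16.9%, KRT222 with 14.7%, KRT18 with 13.2%, KRT17 with 12.4% and KRT23 with 9.29%. Symbols of simple epithelial keratins thus led in hindbrain, and KRT12, the symbol of the corneal keratin of mammals, led in eye. Which tissue of the eye held this RNA was not tested.

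Between naive frog eye and frog control hindbrain, 54 of 58 tested members were higher in eye and 2 lower by limma at an adjusted p of at most 0.05, against 41.4% higher, 35.9% lower and 77.3% in either direction among all 22025 tested entries. A member under 0.45 FPKM in hindbrain was tested only if its eye mean reached that level. The filter thus fixed the direction of such members, and the count of 54 does not test it for them. By mean over all libraries of a tissue, 36 members reached 0.45 FPKM in eye alone. The highest member of all was a KRT12 entry (UniGene_Xl_S21312846, scaffold 13265, 3671962 to 3677491), at 526, 542 and 463 FPKM in naive eyes and 0.0699, 0.223 and 0.0709 in control hindbrains. No hindbrain library of any group came near the eye libraries, of which the lowest had 213 FPKM. The difference was 9.69 on the log2(FPKM + 0.5) scale (SE 0.11, adjusted p = 4.70e-10). The KRT10 entry on scaffold 75417 (XGI_TC447330) stood at 153 ± 13.9 against 0.089 FPKM, KRT75 on scaffold 200825 (Taira201203kidney_X011862) at 131 ± 13.0 against 1.69 ± 0.65, and KRT6A on scaffold 5732 (Taira201203brain_X001103) at 77.6 ± 11.3 against 1.26 ± 1.08. All 9 desmosome plaque entries were higher in eye, from PKP2, at 6.65 against 4.16 FPKM, to a PKP1 entry (Taira201203eye_X005034), at 20.1 against 0.021. PKP1, the plakophilin of stratified epithelium in mammals, was thus all but missing from frog hindbrain, where PKP2, which has a wider distribution in mammals, stood highest of the plakophilin entries followed here.

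**Figure D1:**
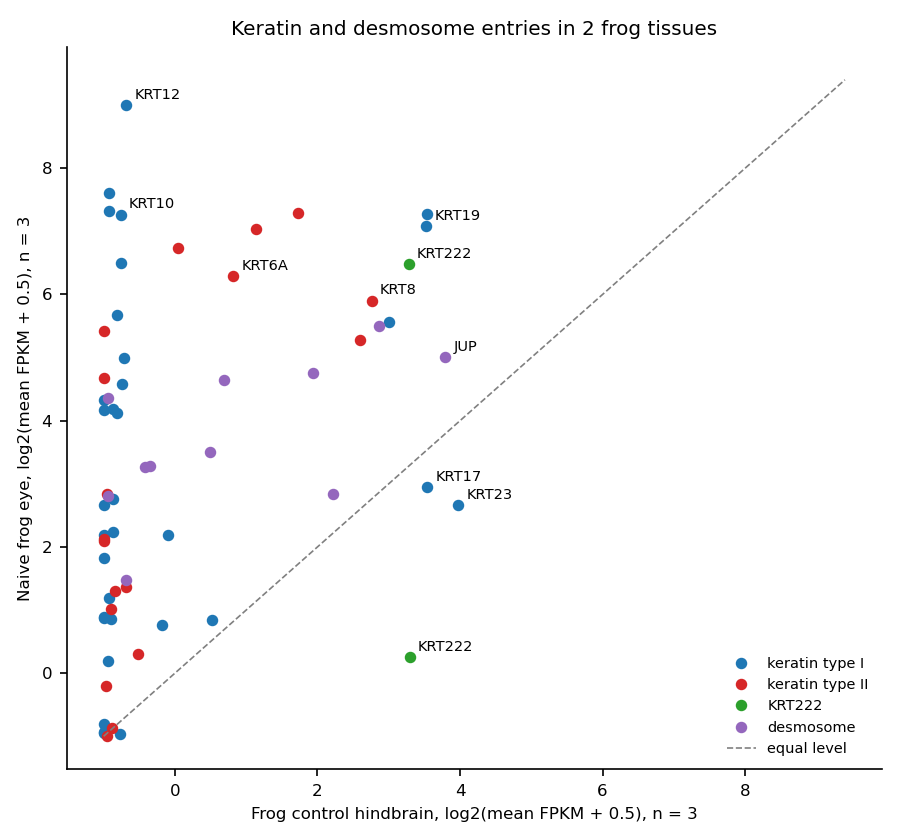
Mean level in naive frog eye (vertical axis) against frog control hindbrain (horizontal axis), both as log2(mean FPKM + 0.5) over 3 libraries, 1 point per keratin or desmosome entry, colored by kind, with a dashed line at equal level. Most points lie far above the line, led by KRT12 at 510 FPKM in eye. Of the tested entries, KRT23, 1 KRT222 entry and 1 KRT17 entry lie below it. A KRT14 and a KRT5 entry under 0.45 FPKM in both groups, not tested, also had lower means in eye.

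The exceptions were KRT23, a type I keratin, and 1 of the 2 KRT222 entries, KRT222 being a distant keratin relative with no settled role. KRT23 (Taira201203eye_X008640, scaffold 75417) had 15.7, 12.6 and 17.3 FPKM in control frog hindbrain and 4.77, 7.13 and 5.55 in naive eye. The difference was -1.32 (log2, SE 0.16, adjusted p = 9.08e-05). The KRT222 entry on scaffold 13265 (Audic201207_X008219) stood at 9.30 ± 0.55 FPKM in hindbrain and 0.688 ± 0.058 in eye (-3.04, SE 0.11, adjusted p = 6.34e-08), whereas the KRT222 entry on scaffold 75417 (Taira201203intestine_X005728) stood at 9.21 ± 0.38 in hindbrain and 89.1 ± 7.14 in eye (3.20, SE 0.07, adjusted p = 6.58e-09). The 2 KRT222 entries were thus at the same level in hindbrain and at very different levels in eye. In eyes of 3 days, the second entry was highest in the libraries with the most lens RNA. In ONC eyes it had 128, 36.7 and 154 FPKM where the lens sum was 445583, 167382 and 431490 FPKM. In contralateral eyes it had 48.2, 43.2 and 124 FPKM beside 249237, 177279 and 447217. The highest lens sum of any eye library, 546062 FPKM, was in contralateral replicate 3 of 11 days. In that group this entry reached at most 123 FPKM. The part of lens tissue in its level was not tested.

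Keratin RNA in hindbrain varied widely between libraries of 1 group. In unoperated tadpoles of the 3-day comparison the keratin sum was 78.7, 105 and 179 FPKM, and after SCI it was 52.1, 46.8 and 83.0. In tadpole controls of 7 days and 3 weeks it was 51.6 ± 2.72 and 55.4 ± 5.47, and after SCI 57.8 ± 13.6 and 86.8 ± 53.3, where 1 library at 148 stood above the others at 55.0 and 57.0. In frog hindbrain the sum was 74.6, 81.8 and 131 FPKM in controls, 100 ± 10.9 at 3 days, 105 ± 23.5 at 7 days and 85.4 ± 12.4 at 3 weeks. Several groups, 3-day tadpole SCI included, thus had 1 library above the others.

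**Figure D2:**
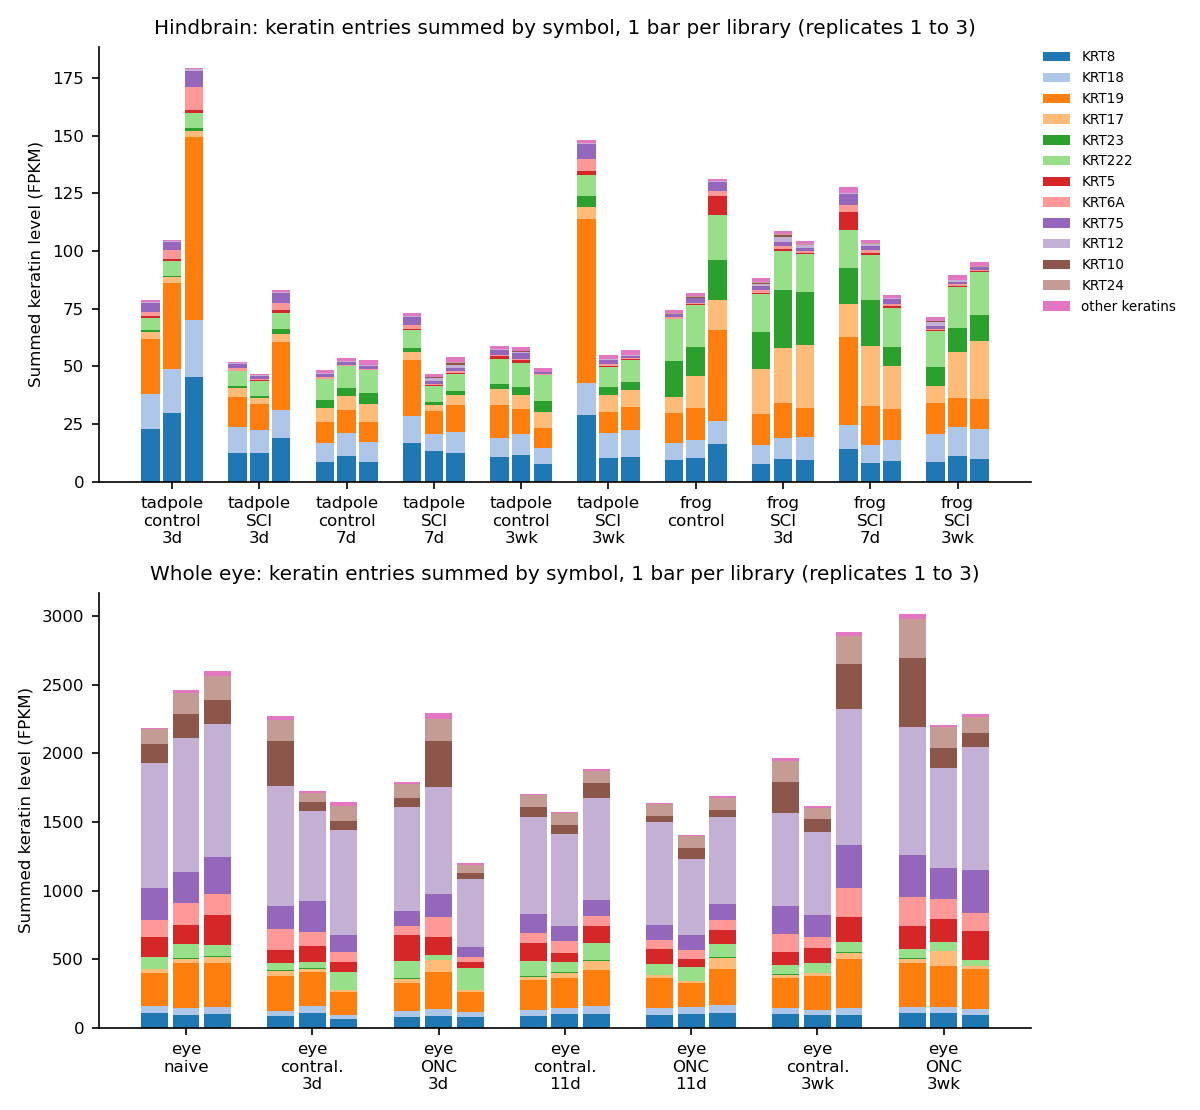
Summed FPKM of keratin entries, stacked by symbol, with 1 bar for each of the 3 libraries of a group, hindbrain above and whole eye below on separate scales. Hindbrain bars reach 179 FPKM in replicate 3 of the 3-day tadpole control and eye bars range from 1202 to 3020 FPKM. KRT19 and KRT8 led over all hindbrain libraries together, though not in every frog group, and KRT12 led in eye.

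4 hindbrain libraries held the most RNA of 1 KRT19 entry: tadpole control of 3 days replicate 3, tadpole SCI of 3 weeks replicate 1, frog control replicate 3 and frog SCI of 7 days replicate 1. KRT19 on scaffold 13265 (Taira201203heart_X001328) had 36.8 FPKM in the tadpole control library against 6.68 and 14.5 in the other two, 33.9 in the 3-week tadpole SCI library against 1.34 and 1.03, 23.5 in the frog control library against 4.14 and 5.38, and 22.8 in the 7-day frog SCI library against 8.10 and 5.84, and no other hindbrain library had more than 14.5. KRT6A on scaffold 5732 was the highest of its group in each of the same 4 libraries, at 9.90, 4.93, 2.51 and 2.90 FPKM, beside 0.558 to 3.98 in their groups' other libraries. The main entry of KRT5 (Taira201203brain_X001064), the basal keratin of stratified epithelium, had 8.17 FPKM in the frog control library beside 0.102 and 0.163 in the other two, and 7.64 in the 7-day frog SCI library beside 0.514 and 0.456. In tadpoles it had 1.72 FPKM in the 3-week SCI library beside 0.0799 and 0.0701, and 0.985 in the control library beside 0.454 and 0.378.

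The summed level of 28 entries of epidermal and epithelial regulators was 10.5, 11.4, 12.2 and 13.2 FPKM in these 4 libraries, in each the highest of its group, but lay between 8.49 and 13.6 in all hindbrain libraries, against 104 to 211 in eye. TP63, the master regulator of stratified epithelium, had a median of 0.0327 FPKM over hindbrain and 8.74 over eye. The tadpole control library with the most KRT19 did hold more RNA of skeletal muscle genes, 75.5 FPKM over 21 entries, where every other hindbrain library had 21.1 to 37.3. The part of other tissues in the keratin excess was not tested.

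The entries whose level was most like that of the KRT6A entry over the 18 tadpole hindbrain libraries were named by Pearson r of log2(FPKM + 0.5) among 18248 entries. They were KRT19 on scaffold 75417 (r = 0.960), COLEC12, a scavenger receptor (0.933), KRT75 on scaffold 200825 (0.931), MMP14, a membrane-bound matrix protease (0.927), SLC6A13, a GABA transporter (0.926), KRT19 on scaffold 13265 (0.925), KRT8 on scaffold 5732 (0.905), HPD, an enzyme of tyrosine breakdown (0.905), ANXA1, an annexin (0.904), and ALDH1A2, a retinoic acid synthesizing enzyme (0.899). All 10 had their highest tadpole level in the same library, replicate 3 of the 3-day control. SLC6A13 and ALDH1A2 are in the list of meninges and connective tissue markers used here, and no other marker of that list is among the 10. This SLC6A13 entry had 2.57 to 10.4 FPKM in tadpoles, while all SLC6A13 entries together had 134 to 174 over hindbrain libraries. Whether the 10 entries share a tissue of origin was not tested. Over the 12 frog hindbrain libraries the r was 0.932 for KRT19 on scaffold 13265, 0.913 for HPD and 0.861 for COLEC12, but 0.490 for KRT8 and 0.311 for MMP14.

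At 3 days after SCI the tadpole hindbrain held less KRT8, the type II keratin of simple epithelia, than its controls. Of 24 tested members 1 was lower and 0 higher, against 1.29% lower and 1.85% in either direction among all 19588 entries. This was KRT8 on scaffold 200825 (JGIL6RMv1_XeXenL6RMv10015101m, 6998824 to 7008360), with 15.2, 18.3 and 25.3 FPKM in controls and 9.17, 9.25 and 11.3 after SCI. The groups did not overlap. The change was -0.93 on the log2 scale (SE 0.17, adjusted p = 0.0373), or 1.98-fold lower by means. The call was lost without control replicate 2 or 3 or without any SCI library, the adjusted p then reaching up to 0.117. In bulk tissue, fewer cells of a type and less RNA per cell cannot be told apart.

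Same-numbered tadpole libraries of 3 days deviated weakly together (r = 0.250, 0.153 and 0.180), which does not establish that they are pairs. With the replicate number as a block 7 members were lower and 0 higher, against 3.61% lower and 5.11% in either direction among all entries. They were both main KRT8 entries (adjusted p = 0.00762 on scaffold 200825 and 0.00443 on 5732), KRT19 on scaffolds 75417 (0.00616) and 13265 (0.0137), KRT75 (0.0108), KRT18 (0.0167) and KRT6A (0.0205). KRT18 on scaffold 200825 (JGIL6RMv1_XeXenL6RMv10015106m), the partner of KRT8 in filaments, had 13.3, 16.4 and 22.8 FPKM in controls and 9.74, 8.84 and 10.5 after SCI. Without the block its adjusted p was 0.0526 at -0.79 (log2). KRT6A had 1.93, 3.98 and 9.90 FPKM in controls and 1.03, 0.628 and 3.18 after SCI, groups that overlapped, and -1.38 (SE 0.54, adjusted p = 0.193) without the block. KRT75 had 3.54, 3.20 and 5.59 FPKM against 1.53, 1.09 and 2.78 (-1.03, adjusted p = 0.0850 without the block). Within each numbered pair the SCI library was the lower for all of these. The library that leads every one of them is control replicate 3, and 2 of 9 meninges and connective tissue markers were also lower, without the block, in this comparison. The part of either in the result was not tested. Over all 24 members the median change was -0.38, with 19 below 0, beside 0.00 over all tested entries. Of 7 desmosome plaque entries 0 passed either test, and of 5 tested entries of other desmosome genes 0 did without the block.

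**Figure D3:**
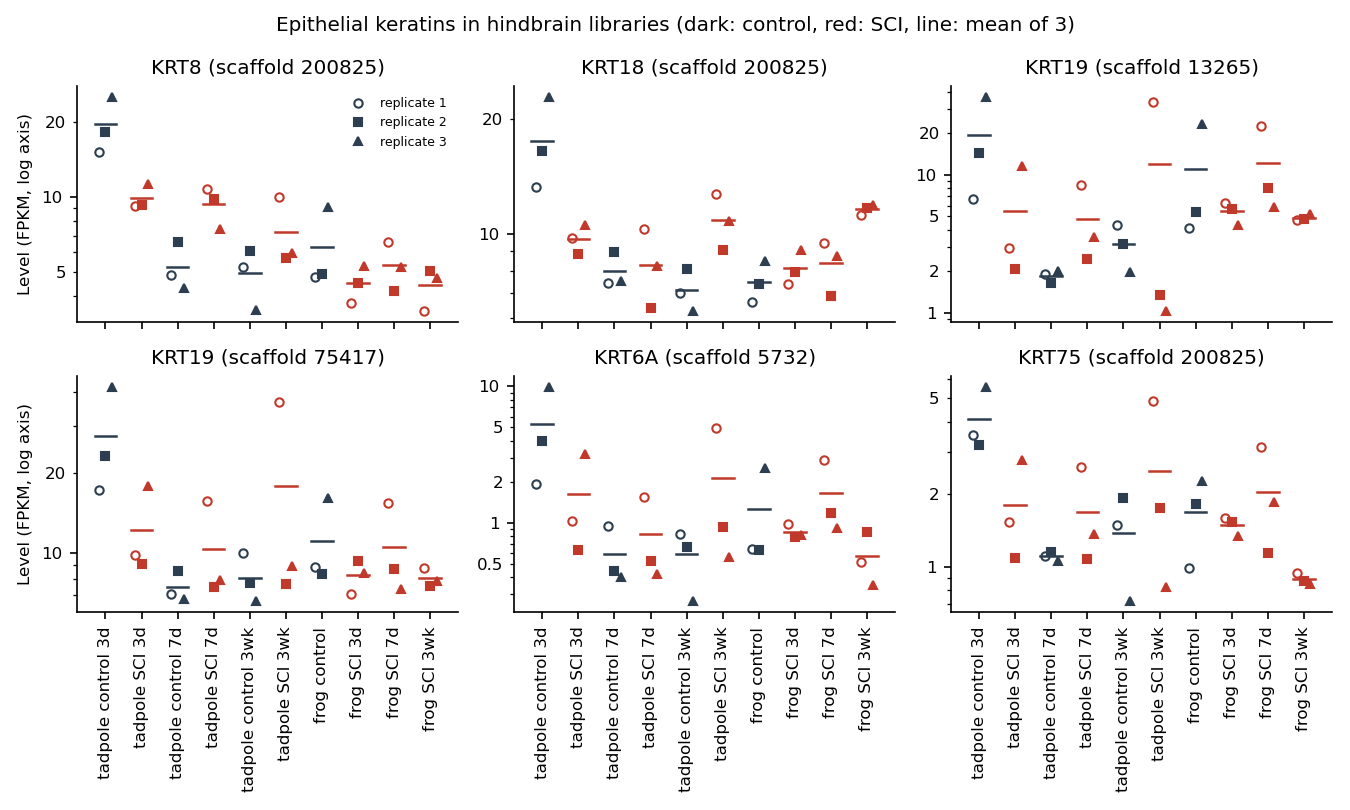
Level in FPKM (log axis) of 6 keratin entries in the 10 hindbrain groups, with 1 symbol for each of the 3 replicates, a bar at the mean, and SCI groups in red. The 3-day tadpole controls lie above the 3-day SCI libraries for KRT8 (15.2 to 25.3 against 9.17 to 11.3 FPKM), and single libraries stand out for KRT19 and KRT6A.

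At 7 days after SCI the direction for the KRT8 entry on scaffold 200825 was the opposite. The same entry had 4.85, 6.58 and 4.32 FPKM in controls and 10.8, 9.82 and 7.42 after SCI, with no overlap. It rose 1.78-fold (0.78 on the log2 scale, SE 0.18, adjusted p = 0.0417). The SCI level was close to that of 3 days (9.35 ± 1.74 against 9.89 ± 1.18 FPKM), while the controls went from 19.6 ± 5.18 at 3 days to 5.25 ± 1.19 at 7 days. That difference between the control groups was not tested, and the titles of the 3-day controls give no time. The main KRT8 entry on scaffold 5732 was not called at 7 days, at 4.54 FPKM after SCI against 4.16 in controls (0.09, adjusted p = 0.794). KRT18 on scaffold 200825 was not called either, at 8.30 against 7.98 FPKM (0.03, adjusted p = 0.916). For both of these entries the groups overlapped.

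KRT17 and KRT23 were lower at 7 days, so that 1 member was higher and 2 lower of 23 tested, against 2.85% higher, 2.06% lower and 4.91% in either direction among all 19859 entries. KRT23 had 3.85, 3.56 and 5.01 FPKM in controls and 1.73, 0.970 and 1.59 after SCI, which is 2.89-fold lower by means (-1.28, SE 0.19, adjusted p = 0.0156). KRT17 on scaffold 13265 (Taira201203brain_X002844, 3711114 to 3728915) had 5.56, 5.92 and 7.30 FPKM in controls and 2.76, 2.39 and 4.59 after SCI (-0.89, SE 0.21, adjusted p = 0.0461). Neither pair of groups overlapped. In 3-day controls both were lower than in 7-day controls, KRT23 at 0.784 to 1.09 FPKM and KRT17 at 2.23 to 2.71. For both genes 7-day SCI replicate 2 thus lay within the range of the 3-day controls, and the other 7-day SCI libraries lay above it. Leaving out 1 library raised the adjusted p to at most 0.0550 for KRT23, 0.153 for KRT17 and 0.147 for KRT8. The 3 calls fell to 0 without SCI replicate 2, control replicate 1 or control replicate 2.

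Lens RNA differed in this comparison too. The sum of lens genes was 37.2, 508 and 488 FPKM in the 7-day SCI libraries and 30.6, 35.5 and 46.7 in controls, and 3 of 46 lens entries were higher. The KRT12 entry with the highest level in eye (UniGene_Xl_S21312846) followed it, at 0.0845, 0.601 and 0.896 FPKM after SCI. KRT17 and KRT23, which were lower in these libraries, had at most 9.48 and 8.30 FPKM in any eye library.

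At 3 weeks 0 of 24 members passed in tadpoles, against 0.101% of all entries, and 2 had an unadjusted p under 0.05. KRT8 was at 5.24, 6.06 and 3.53 FPKM in controls and 9.99, 5.71 and 5.97 after SCI. KRT23 was at 2.38, 3.26 and 4.70 FPKM in controls and 4.81, 3.41 and 3.29 after SCI, and KRT17 at 6.64, 6.12 and 6.96 against 4.77, 7.34 and 7.14. For each of these the groups overlapped.

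In frog hindbrain KRT17 was the only keratin called after SCI. It stood at 6.93, 13.7 and 12.6 FPKM in controls and at 19.5, 22.8 and 26.8 at 3 days after SCI, with no overlap. It rose 2.07-fold (1.06 on the log2 scale, SE 0.23, adjusted p = 0.0293). At 7 days it was at 13.7, 25.4 and 18.5 FPKM (0.78, adjusted p = 0.180) and at 3 weeks at 6.95, 19.9 and 24.6, both overlapping the controls. The 3-day level of this entry (Taira201203brain_X002844) lay above its level in every eye library, of which the highest had 9.48 FPKM. Another KRT17 entry (mgEST_1013095597) reached 99.0 FPKM in eye. At 3 days after SCI that entry had 0.462 ± 0.274 FPKM against 0.097 ± 0.045 in controls, with no overlap (0.66, adjusted p = 0.122). The other call was JUP on scaffold 13265 (JGIL6RMv1_XeXenL6RMv10040869m), which had 7.72, 6.11 and 6.53 FPKM in controls and 8.98, 9.25 and 8.86 after SCI, a rise of 1.33-fold (0.39, SE 0.10, adjusted p = 0.0465). The other JUP entry, on scaffold 75417 (Quigley201212_X029726), had 14.8, 14.0 and 11.2 FPKM against 18.6, 16.6 and 16.4 (0.36, adjusted p = 0.0715).

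These 2 were all the members called of 24 at 3 days, both higher, against 7.36% higher and 11% in either direction among all 20147 entries, so the members were called no more often than other entries. KRT17 was lost without control replicate 3, SCI replicate 2 or SCI replicate 3 (adjusted p up to 0.0818), and JUP without any library but control replicate 1 (up to 0.153). The frog libraries high in KRT19 are control replicate 3 and SCI of 7 days replicate 1, of which only the first is in this comparison. Leaving them out was thus the fit without control replicate 3, in which neither was called. No simple epithelial keratin was called at 3 days in frogs, with KRT8 at 4.78, 4.93 and 9.13 FPKM in controls and 3.76, 4.52 and 5.27 after SCI, and KRT18 at 6.61, 7.39 and 8.48 against 7.39, 7.95 and 9.06. PKP2 had 3.85, 4.83 and 3.80 FPKM in controls and 7.53, 5.27 and 5.33 after SCI (adjusted p = 0.0894), and 0 of 5 tested entries of other desmosome genes were called.

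Sums of the marker lists of other tissues moved in this comparison, in which 7.36% of all entries were higher. Choroid plexus genes summed to 67.9, 71.5 and 65.8 FPKM over 22 entries in frog controls and to 128, 112 and 120 at 3 days, with 2 of 8 tested entries higher. Of these genes, AQP1 reached 103 FPKM over all hindbrain libraries, KCNJ13 5.68, OTX2 3.19 and KL 1.89. TTR, FOLR1, CLIC6 and SLC4A5 reached at most 0.539, 0.449, 0.649 and 0.659 FPKM. Lens genes summed to 80.6, 369 and 65.6 FPKM in controls and 339, 563 and 478 at 3 days, with 5 of 46 higher, and KRT12 (UniGene_Xl_S21312846) was at 0.306, 1.04 and 0.421 FPKM beside them. The part of choroid plexus in the levels of KRT17 and JUP was not tested.

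Later frog times held no call: 0 of 22 members at 7 days, against 1.42% of all entries, and 0 of 22 at 3 weeks, against 0.403%, with 2 and 6 members at an unadjusted p under 0.05. At 3 weeks KRT18 on scaffold 200825 was at 11.2, 11.7 and 11.9 FPKM, above all controls (0.60, adjusted p = 0.0539), and KRT23 at 8.47, 10.4 and 11.2, below all controls (-0.57, adjusted p = 0.0836). The frog comparisons share their controls.

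The responses of tadpole and frog hindbrain at 3 days were compared by an interaction term, the SCI change in tadpoles minus that in frogs. It was lower for 2 of 27 members and higher for 0, against 3.23% lower and 5.91% in either direction. For KRT18 on scaffold 200825 it was -0.90 (log2, SE 0.23, adjusted p = 0.0393). For PKP3 on scaffold 51988 (Quigley201212_X023422, 229199 to 287173) it was -0.94 (SE 0.22, adjusted p = 0.0286): this plakophilin had 1.78, 1.93 and 2.38 FPKM in tadpole controls and 1.18, 1.39 and 0.857 after SCI, and 0.256, 0.272 and 0.324 in frog controls and 0.420, 0.563 and 0.440 after SCI. Each single comparison of PKP3 left it short of the threshold, and the frog levels lie near or below 0.45 FPKM. The PKP3 call was lost without any one replicate number (adjusted p 0.0848 to 0.211) and with the block, and that of KRT18 without replicate 2 or 3 (up to 0.291). For KRT17 the interaction was -0.77 (adjusted p = 0.164), so a difference between tadpole and frog in its response was not shown.

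**Figure D4:**
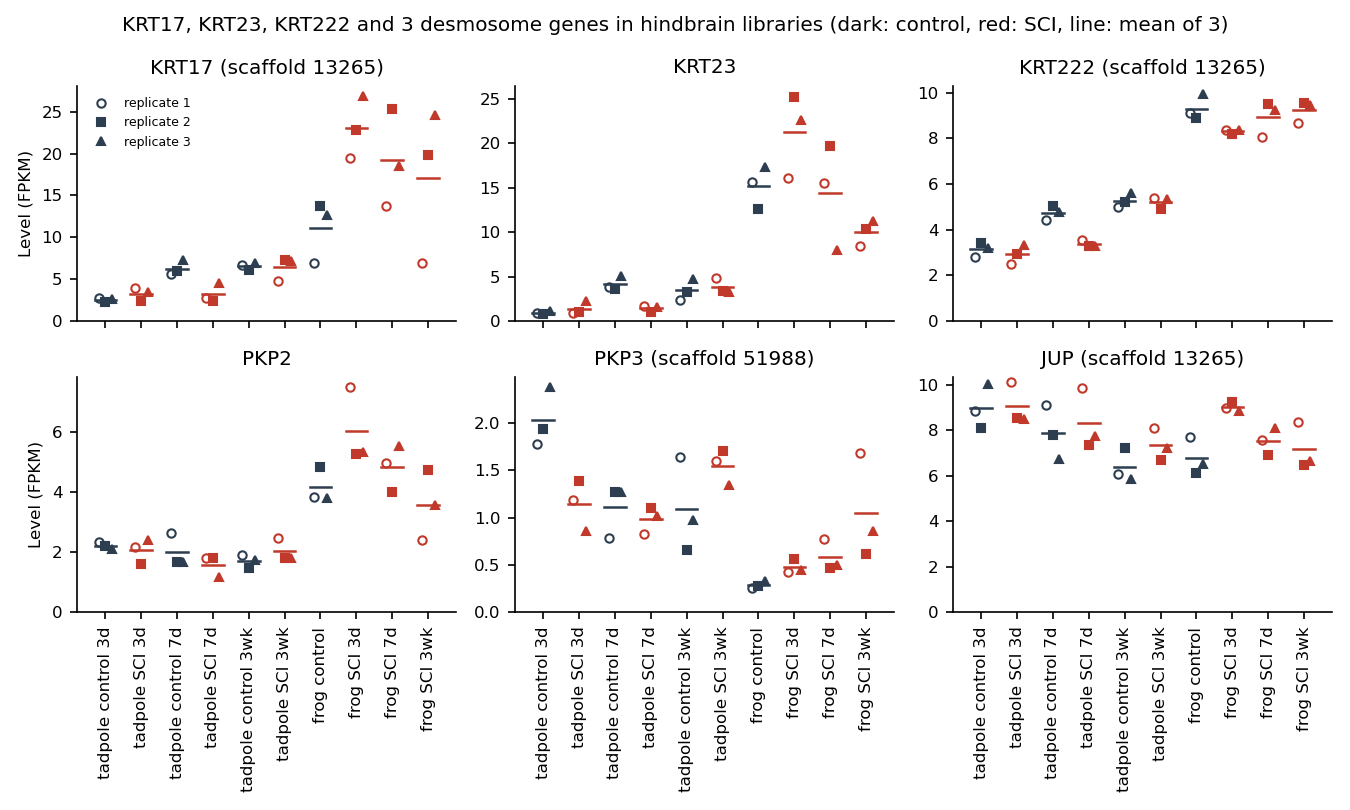
Level in FPKM of KRT17, KRT23, KRT222, PKP2, PKP3 and JUP entries in the 10 hindbrain groups, tadpole on the left and frog on the right of each panel, with 1 symbol per replicate, a bar at the mean and SCI groups in red. KRT23 lies at 12.6 to 17.3 FPKM in frog controls against 2.38 to 4.70 in 3-week tadpole controls, and KRT17 is at 19.5 to 26.8 FPKM 3 days after SCI in frogs.

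Larval and postmetamorphic levels were compared in unoperated hindbrain, frog control against the 3-week tadpole control. Of 24 members 4 were higher in frogs and 3 lower, against 18.1% higher, 16.4% lower and 34.6% in either direction among all 20178 entries. KRT23 stood at 15.2 ± 2.37 FPKM in frogs and 3.45 ± 1.17 in tadpoles, 4.41-fold higher (2.02, SE 0.21, adjusted p = 0.000449). PKP2 (Taira201203brain_X000808) stood at 4.16 ± 0.58 against 1.70 ± 0.22 (1.08, SE 0.14, adjusted p = 0.00118). The KRT222 entries were higher in frogs by 0.77 (scaffold 13265, adjusted p = 0.000821) and 0.65 (scaffold 75417, adjusted p = 0.00116). Lower in frogs were PKP3 on scaffold 51988, at 0.284 ± 0.036 against 1.09 ± 0.50 FPKM (-0.98, SE 0.24, adjusted p = 0.0163), DSG2 on scaffold 29621 (Quigley201212_X014922), at 0.123 against 0.584 (-0.80, SE 0.18, adjusted p = 0.0106), and JUP on scaffold 75417, at 13.4 ± 1.89 against 18.1 ± 1.62 (-0.43, SE 0.12, adjusted p = 0.0243, lost without tadpole control replicate 1 or 2 or frog control replicate 3). Plakophilins thus differed in direction between stages, PKP2 higher and PKP3 lower in frogs. No stratified or simple epithelial keratin was called, and KRT23 and KRT222 were the only keratins called. The members were called no more often than other entries. KRT23 also differed between tadpole controls, at a mean of 0.908 FPKM in those of 3 days and 4.14 in those of 7 days. The files do not pair entries with names of larval or adult *Xenopus* keratins. Age and rearing cannot be told apart from metamorphosis in this comparison, nor can the letter R of the frog controls.

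In the eye the 3 comparisons of ONC with contralateral eyes held no call among the members: 0 of 60 at 3 days, 0 of 56 at 11 days and 0 of 58 at 3 weeks, against 0.19%, 2.86% and 0.612% of all entries. The number at an unadjusted p under 0.05 was 0, 4 and 4. With the replicate number as a block, 2 members passed at 11 days, against 1.96% of all entries in that fit, and 0 at the other times. They were KRT10 (Taira201203eye_X002335), lower at 0.856, 2.16 and 1.84 FPKM in ONC eyes against 3.12, 4.17 and 5.58 in contralateral eyes (-1.20, adjusted p = 0.0305 with the block and 0.0640 without), and KRT15 (UniGene_Xl_S24455952), higher at 6.35, 5.32 and 12.2 against 3.85, 3.11 and 6.42 (0.74, adjusted p = 0.0363 and 0.246). The spread between eyes of 1 group was wide. KRT6A on scaffold 5732 had 31.0, 64.4 and 15.5 FPKM in ONC eyes of 3 days and 77.2, 81.8 and 34.3 in contralateral eyes (-0.92, adjusted p = 0.878), and KRT75 on scaffold 200825 had 39.6, 85.5 and 39.1 against 98.6, 128 and 60.0 (-0.83, adjusted p = 0.809). At 11 days KRT6A had 35.0, 38.6 and 42.2 FPKM in ONC eyes and 41.5, 45.2 and 39.6 in contralateral eyes, and the KRT6A entry on scaffold 200825 (XGI_TC460019) had 4.77 ± 1.5 against 12.3 ± 4.54 (-1.26, adjusted p = 0.0771). At 3 weeks KRT6A had 84.8, 58.2 and 79.8 FPKM in ONC eyes and 58.5, 43.6 and 108 in contralateral eyes. The groups overlapped at each of these times for the main KRT6A entry (Taira201203brain_X001103). The other KRT6A entry on scaffold 5732 (JGIL6RMv1_XeXenL6RMv10030452m) did not overlap at 3 weeks. It had 46.5 ± 3.66 FPKM in ONC eyes and 29.8 ± 5.59 in contralateral eyes (0.65, adjusted p = 0.118). KRT10 on scaffold 75417 also varied between eyes, at 61.8, 315 and 40.9 FPKM in ONC eyes and 317, 64.1 and 64.1 in contralateral eyes of 3 days, and at 467, 138 and 103 against 211, 81.2 and 302 at 3 weeks. The interaction of the eye response with that of frog hindbrain at 3 days passed for 0 of 60 members, against 1.06% of all entries, with 5 at an unadjusted p under 0.05.

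The contralateral eye itself, the control of these comparisons, had less keratin RNA than naive eyes at 11 days. This was not particular to the contralateral eye. The keratin sum of 11 days was 1578 ± 151 FPKM in ONC and 1721 ± 156 in contralateral eyes, beside 2417 ± 210 in naive eyes. ONC eyes were not tested against naive eyes. Of 58 tested members 22 were lower in contralateral than in naive eyes and 0 higher, against 4.92% lower and 9.18% in either direction among all 21613 entries. KRT75 on scaffold 200825 had 124, 124 and 146 FPKM in naive eyes and 69.0, 58.2 and 53.4 in contralateral eyes, 2.18-fold lower (-1.12, adjusted p = 0.00311), and all 4 KRT75 entries were called. KRT6A on scaffold 5732 had 65.3, 87.3 and 80.2 FPKM in naive eyes and 41.5, 45.2 and 39.6 in contralateral eyes (-0.87, adjusted p = 0.00660). KRT10 (XGI_TC447330) had 138, 159 and 164 FPKM against 68.8, 61.4 and 102 (-1.01, adjusted p = 0.0158). None of these groups overlapped. The largest fall by log2 was that of a KRT12 entry at low level (Taira201203eye_X002328), from 5.15, 3.99 and 3.53 FPKM to 0.272, 0.634 and 1.19 (-2.04, SE 0.27, adjusted p = 0.00660). The highest KRT12 entry (UniGene_Xl_S21312846), at 526, 542 and 463 FPKM in naive and 409, 375 and 397 in contralateral eyes, did not pass.

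Most desmosome entries were lower with them. 7 of 9 desmosome plaque entries fell at 11 days, namely both entries each of DSP, PKP1 and PKP3 and 1 of JUP, and 1 of 2 DSG2 entries did. PKP2 went the other way without overlap, at 7.76 ± 0.41 FPKM in contralateral and 6.65 ± 0.56 in naive eyes. It was not called (0.21, adjusted p = 0.199). The DSP entries, at 23.5 to 29.9 and 21.2 to 26.2 FPKM in naive eyes, were at 11.8 to 16.3 and 11.6 to 15.4 in contralateral eyes. Of 7 entries of other desmosome genes 3 were lower. No KRT8 or KRT19 entry was called, with KRT8 on scaffold 200825 at 57.8 to 60.8 FPKM in naive and 47.1 to 53.1 in contralateral eyes, and 1 of 4 KRT18 entries was. Whether stratified and simple epithelial keratins differ in this was not tested. The count of 22 was 8 without naive replicate 2, 10 without naive replicate 3, 15 to 21 without any other library, and 3 with all eye groups in 1 fit. The share of all entries called in those fits is not given here. Other tissues' genes were lower in the same eyes: 10 of 12 tested cartilage and bone entries, 8 of 14 meninges and connective tissue entries, and 8 of 27 epidermal and epithelial regulators. Their sums were 147 to 181 FPKM in naive and 77.4 to 101 in contralateral eyes for cartilage and bone, 637 to 783 and 358 to 411 for connective tissue, and 162 to 211 and 122 to 159 for epidermal regulators. Their part in the result was not tested.

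At 3 days the contralateral eyes had 0 of 59 members called, against 0.102% of all entries, with 16 at an unadjusted p under 0.05, a median change of -0.48 and 51 of 59 members below 0. Without replicate 3, the only library of this group with the letter B, 4 members passed. The share of all entries called in that fit is not given here. At 3 weeks 3 of 59 were lower, against 3.85% of all entries lower and 8.26% in either direction: KRT12 (UniGene_Xl_S21312846, 334 ± 74.2 against 510 ± 41.5 FPKM, adjusted p = 0.0404), KRT18 on scaffold 200825 (33.9 ± 4.61 against 46.7 ± 1.74, adjusted p = 0.0334) and KRT222 on scaffold 75417 (70.0 ± 5.32 against 89.1 ± 7.14, adjusted p = 0.0472). All 3 were lost without naive replicate 2 or 3 or contralateral replicate 1, and the median change over the members was -0.01. The share called at 3 weeks was thus near that of all entries. The 3 comparisons share the naive eyes.

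**Figure D5:**
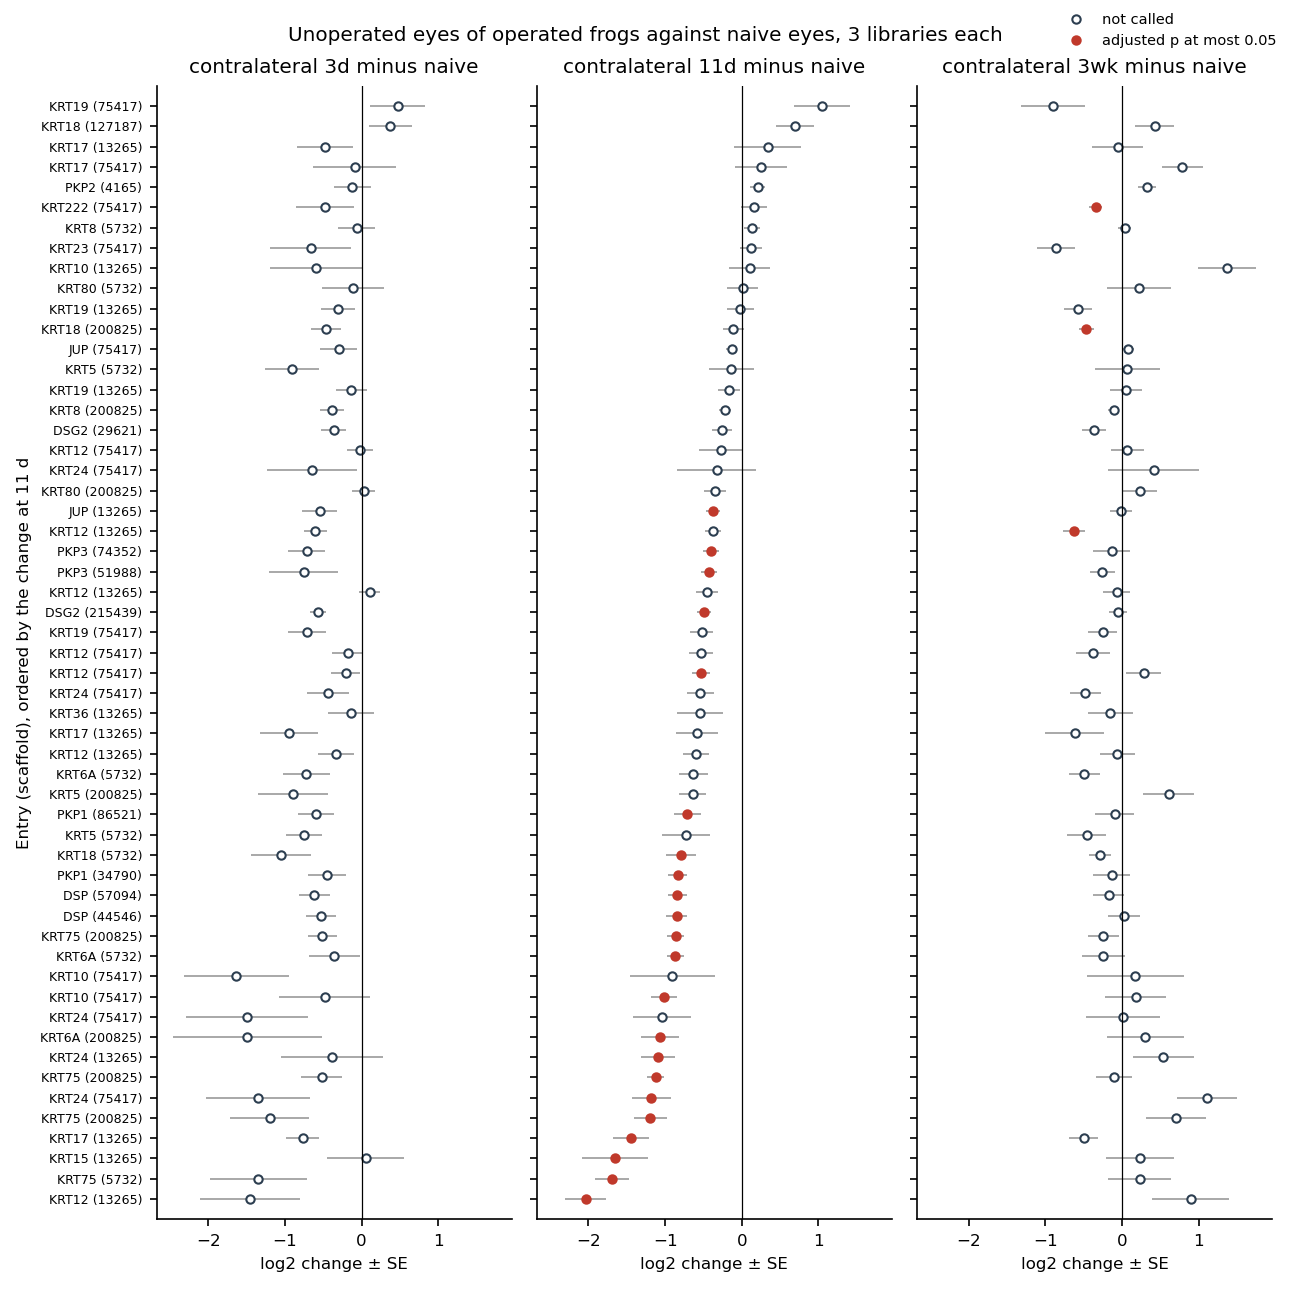
Change on the log2(FPKM + 0.5) scale with its SE (horizontal axis) of the 55 entries with at least 1 FPKM in naive eyes, for contralateral against naive eyes at 3 times, 1 line per entry ordered by the change at 11 days, with called entries filled in red. Most points lie left of 0 at 3 and 11 days, with medians of -0.48 and -0.51 over the members tested, and around 0 at 3 weeks.

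Over the 9 comparisons of injured with control tissue, 4 members were called at least once, namely KRT8, KRT17, KRT23 and JUP, all in hindbrain, and 61 were called in none. The share of all entries called at least once over the 9 was not counted, so this count has no background beside it. In single comparisons that share ran from 0.101% (tadpole SCI at 3 weeks) to 11% (frog SCI at 3 days).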

How the data were processed

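The authors deposited 1 FPKM value for each entry in each library, and these values were taken as they stand. The authors prepared stranded total RNA libraries after removal of ribosomal RNA, aligned single-end reads with Bowtie2 2.2.9 and TopHat 2.1.1 to the Xenbase v9.1 genome, annotated them with the Mayball gene models and estimated FPKM with CuffDiff2. The library normalization method is not given in the sources used here. Ambiguous reads went to the homeolog with the higher alignment score, and the remainder was spread at random.

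FPKM are not counts, so each comparison was tested with limma 3.58.1 in R 4.3.3 on log2(FPKM + 0.5), which understates changes of low entries, with variances moderated along a trend and Benjamini-Hochberg adjustment over all tested entries. An entry was tested when 1 of the compared groups averaged 0.45 FPKM or more, and called at an adjusted p of at most 0.05. Only the compared groups entered a fit. Differences between responses were interaction terms over 4 groups. Libraries are pools of animals, so p-values measure the spread between pools. The test was checked on simulated data. Intervals from read numbers were not computed, since FPKM do not hold the read counts.

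The members and marker lists were chosen with earlier results of these data known. Full values are given for members called in an injury comparison, the KRT6A and KRT75 entries, the 6 highest members of each tissue, the largest called rise and fall in each comparison, and the 10 entries most like KRT6A over the tadpole hindbrain libraries. Other members named were chosen after their values were seen.

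Whether replicate numbers pair libraries was judged by the correlation of deviations from group means. For the 3-day tadpole comparison it was 0.250, 0.153 and 0.180 in the 3 pairs, all above 0.1, and the fit with the replicate number as a block is given there. In no other comparison did all 3 pairs reach this. Contralateral eyes of 3 weeks and naive eyes, which come from different frogs, came near it at 0.154, 0.091 and 0.187. The check thus cannot tell paired from unpaired libraries. Tadpole SCI replicates are described as paired, and contralateral eyes are from the ONC frogs, but the labels do not tie the numbers.

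Alternatives were median-of-ratios scaling, no minimum level, pseudocounts of 0.1 and 1, the replicate block, a joint fit of every group of a tissue, and leaving out each library. Leaving out the frog libraries high in KRT19 was added after the data were seen. Python 3.11.15 was used for sums and plots. No sequences were used here.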

Additional observations from a re-analysis of the deposited data

Results flagged for a closer look

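The SCI change at 3 days differed between tadpole and frog hindbrain for 2 members by the interaction term of limma. For PKP3 on scaffold 51988, a plakophilin, the tadpole change minus the frog change was -0.94 (log2, SE 0.22, adjusted p = 0.0286), from lower means after SCI in tadpoles and higher ones in frogs, with frog levels near or below the threshold of 0.45 FPKM. For KRT18 on scaffold 200825 it was -0.90 (SE 0.23, adjusted p = 0.0393), and its level was lower after SCI in every numbered tadpole pair while the frog groups overlapped. Neither change passed the test within 1 of the stages alone without the replicate block. The PKP3 interaction call was lost in every fit that left out 1 replicate number and with the block. That of KRT18 was lost in part of the fits that left out 1 replicate number.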

How the results depend on the processing

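No member changed direction past the threshold in any alternative. Of 3013 values for single members under alternatives, 2892 stayed on their side of the threshold, 85 lost a call and 36 gained one. Of 186 counts of called members, 140 stayed within 1.5 times the reported count. The counts of ONC eyes at 3 days and 3 weeks were 0 in every setting run, the count of frog against tadpole control was 6 to 10 (7 reported), and that of eye against hindbrain 55 to 57 (56 reported).

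Without a minimum level the count was 0 in tadpole hindbrain at 3 days (1 reported), 1 at 7 days (3 reported) and 1 in contralateral eyes of 3 weeks (3 reported). With all groups of a tissue in 1 fit it was 3 in tadpoles at 3 days, 1 at 3 weeks (0 reported), 5, 1 and 3 in frogs at 3 days, 7 days and 3 weeks (2, 0 and 0 reported), and 1, 3 and 0 in contralateral eyes of 3 days, 11 days and 3 weeks (0, 22 and 3 reported). Median-of-ratios scaling gave 1 in frogs at 3 days. Leaving out the frog libraries high in KRT19, which removes only control replicate 3 from that comparison, gave 0 there. A pseudocount of 0.1 gave 1 for the eye minus frog interaction (0 reported). The cause of these differences was not tested. The share of all entries called in these fits is not given here, so the counts have no background beside them.

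With the replicate number as a block the count was 7 in tadpoles at 3 days, 2 in ONC eyes of 11 days (0 reported), 6 in contralateral eyes of 3 weeks and 4 for the eye minus frog interaction, and 3 in frogs at 3 days and for the tadpole minus frog interaction (2 reported each). It moved no other count by over 1.5 times. The share of all entries called with the block was 5.11% in tadpoles at 3 days and 1.96% in ONC eyes of 11 days. For the other blocked fits that share is not given here, so their counts have no background beside them. For tadpole SCI the study describes paired replicates, and ONC and contralateral eyes come from the same frogs, but the labels do not say which numbers belong together. In the other comparisons libraries share only a number.

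Leaving out 1 library gave 0 to 2 in tadpoles at 3 days, 0 to 3 at 7 days, 0 to 2 in frogs at 3 days, 0 to 1 in ONC eyes of 11 days, and 0 to 4, 8 to 21 and 0 to 3 in contralateral eyes of 3 days, 11 days and 3 weeks. Leaving out 1 replicate number gave 0 to 1 for the tadpole minus frog interaction. These counts too are given without the share of all entries called in the same fits. Groups of 3 pooled libraries limit what can be called, and levels under 0.45 FPKM were not tested.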
